A study of Homo sapiens with 8 samples.

Results

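Tight junctions seal the space between neighbouring epithelial cells. Claudins are the 4-pass membrane proteins that form the seal or, for some of them, a pore; occludin and the immunoglobulin-type protein JAM-A sit beside them, and the scaffold ZO-1 ties the strand to the actin cytoskeleton. In the pancreas the duct epithelium carries such junctions, and adenocarcinoma cells of ductal type keep several claudins. The genes described here were CLDN1, CLDN2, CLDN3, CLDN4, CLDN7 and CLDN18 (claudins), OCLN (occludin), F11R (JAM-A) and TJP1 (ZO-1). They were chosen as every probe whose accession maps to 1 of these 9 genes, which gave 14 of the 41000 probes, for 9 of the 17240 genes with a symbol on the array.

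Gene expression was measured on 8 Agilent 2-colour arrays in CAPAN-2, an established human pancreatic adenocarcinoma cell line. On 4 arrays, 4 stable clones in which ErbB2 was knocked down by shRNA (ErbB2-KD, clones EV7, EV12, EV9 and EV18 on arrays 1 to 4) were each hybridised against a pool of 4 clones with the empty vector (NT, puromycin vector). On the other 4 arrays, RNA labelled MUC4-KD (shRNA from a retroviral vector, clones not named in the labels) was hybridised against RNA labelled Mock, a pool of 4 clones with the empty retroviral vector. The methods give 4 MUC4-KD clones, but whether each of these arrays held a different clone could not be settled from the labels. For that experiment n = 4 therefore counts arrays. All clones came from limiting dilution, so each is 1 clone of a line and not a population, and each pool was counted as 1 control sample whose own spread enters no test. The labelled knockdown was in Cy5 on ErbB2-KD arrays 1 and 2 and MUC4-KD arrays 3 and 4, and in Cy3 on the others. The 8 arrays lay on 3 slides, and the share of probes well above background ranged from 56.7% to 74.2% over the channels. All 8 pancreatic ductal epithelium markers (among them KRT19, EPCAM and CDH1) could be tested in both experiments, whereas no acinar marker was well above background on all 4 arrays of an experiment in either RNA.

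The targeted genes were read first. The brighter ERBB2 probe had log2 ratios of -0.58, -0.32, -0.33 and -0.38 in ErbB2-KD over NT, lower on 4 of 4 arrays, with a mean of -0.40 ± 0.11 (SE; limma, adjusted p = 0.145, n = 4), and the other ERBB2 probe had 0.04. For MUC4, the probe A_24_P208825 had log2 ratios of 1.71, 2.34, 2.21 and 1.08 in labelled MUC4-KD RNA against labelled Mock RNA, a mean of 1.84 ± 0.22 (SE; limma, adjusted p = 0.00804, n = 4). The probe A_24_P239183 had a mean of 1.34 (limma, adjusted p = 0.0355), and the other MUC4 probes had 0.27 and 0.41. The targeted gene thus went against the label, and all 1998 probes of the study's own list for this experiment run in the opposite direction to the deposited log ratios, whereas the 254 probes of its ErbB2-KD list run in the same direction. The spread over arrays also differed between the channels. In ErbB2-KD, the level in the labelled knockdown channel had a median SD of 0.344 on the log2 scale against 0.167 for NT, while in the MUC4-KD experiment it had 0.149 against 0.249 for the channel labelled Mock. In that experiment 73.0% of probes varied more in the channel labelled Mock. Whether the labels of both RNAs were exchanged was not tested, and every MUC4-KD direction below is that of the labels. Turned the other way, each of these log2 ratios keeps its size and changes its sign.

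CLDN3 and CLDN4, both receptors of Clostridium perfringens enterotoxin, lie next to each other on chromosome 7, with no other annotated gene between them. OCLN is on chromosome 5. The 250 bases before their starts are shown because the log2 ratios of CLDN3 and CLDN4 ran close together over the arrays (r = 0.930 as labelled). Other genes ran closer to CLDN3, and CLDN4 was at rank 79 of 11655. OCLN was added because it, like them, was lower on 4 of 4 MUC4-KD arrays as labelled, without passing the test. The same held for CLDN1 and CLDN7 by their brightest probes, and the windows of these genes are counted below but not shown. Of the OCLN windows only the first is shown. The sequences are those of RefSeq on GRCh38.p14, 5′ to 3′ on the strand of the gene, and capitals mark an E-box written CAGGTG or, on the other strand, CACCTG, which repressors of the Snail and ZEB families are known to bind.
CLDN3, minus strand, chr7:73770271-73770520: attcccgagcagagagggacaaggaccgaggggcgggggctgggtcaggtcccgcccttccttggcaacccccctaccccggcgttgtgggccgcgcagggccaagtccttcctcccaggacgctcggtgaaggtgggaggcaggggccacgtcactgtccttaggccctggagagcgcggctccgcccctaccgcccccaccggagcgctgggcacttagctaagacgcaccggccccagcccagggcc
CLDN4, plus strand, chr7:73830746-73830995: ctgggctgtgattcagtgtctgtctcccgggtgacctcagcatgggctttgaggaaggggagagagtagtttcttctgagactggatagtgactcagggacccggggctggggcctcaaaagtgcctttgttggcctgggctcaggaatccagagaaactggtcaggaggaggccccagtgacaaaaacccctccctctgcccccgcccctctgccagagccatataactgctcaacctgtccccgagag
OCLN, plus strand, chr5:69492297-69492546: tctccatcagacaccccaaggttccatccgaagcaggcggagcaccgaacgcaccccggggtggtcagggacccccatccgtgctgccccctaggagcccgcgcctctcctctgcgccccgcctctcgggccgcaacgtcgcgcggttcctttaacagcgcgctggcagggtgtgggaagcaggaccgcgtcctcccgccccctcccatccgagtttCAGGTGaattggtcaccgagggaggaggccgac

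The E-box was not found in the windows of CLDN3 and CLDN4, and in that of OCLN it began 33 bases before the start. Across the 8 genes with a window (F11R had none), it was in 5 of 15 windows, those of CLDN7 (4 copies in 1 window), OCLN (both windows), CLDN18 and TJP1, against 17.5% of all 35116 windows of this length. The grainyhead-type motif AACCGGTT was in none of the 15 windows and in 0.117% of all windows. GC content was 71.6% for CLDN3 and 58.8% for CLDN4. These are matches of letters and not measured sites.

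Of the 9 genes, 7 could be tested. CLDN2, which forms a cation pore, was well above background on 1 of the 4 ErbB2-KD arrays in each channel and on 1 MUC4-KD array in the channel labelled Mock alone. CLDN18 was well above background in both channels of 2 ErbB2-KD arrays and on none of the MUC4-KD arrays. Its probe was not aligned, so which CLDN18 transcripts it detects was not tested. Both were left out of the tests, which required a probe to be well above background on all 4 arrays of an experiment in 1 of the RNAs. The remaining 7 genes had 12 probes, all of which were well above background in both RNAs on all 8 arrays. For each gene the value is that of its brightest probe, and the second probe of CLDN1, CLDN3, OCLN, F11R and TJP1 is given with it.

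In ErbB2-KD clones none of the 7 genes passed the test (limma against 0, Benjamini-Hochberg adjusted p over 23869 probes, threshold 0.05), where 1.43% of all probes did. At an unadjusted p under 0.05 there were 2 genes, CLDN1 and CLDN3, and the methods' t-test after adjustment called 0 of all 23869 probes. All probes were not counted at an unadjusted p under 0.05, so the 2 genes cannot be set against a share of all probes. At an unadjusted p under 0.01 in limma, there were 0 of the 7 genes and 1673 of the 23869 probes. The median log2 ratio of the 7 genes was 0.18, against -0.01 over all probes tested. In total RNA of a culture, fewer cells that express a gene and less of its RNA per cell cannot be told apart.

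CLDN1, a sealing claudin, had the lowest value. Its log2 ratios in ErbB2-KD over NT were -0.10 in EV7, -2.99 in EV12, -1.89 in EV9 and -0.74 in EV18, with a mean of -1.43 ± 0.46 (SE, n = 4; limma, 95% interval -2.55 to -0.31, adjusted p = 0.190). It was lower on 4 of 4 arrays, which was the case for 15.3% of all probes, but the clones ranged from almost no difference in EV7 to the lowest value in EV12. The dimmer CLDN1 probe gave the same order, with -0.06, -1.40, -1.27 and -0.29 (mean -0.76, adjusted p = 0.212). The level in the NT channel lay between 12.13 and 12.45 on the log2 scale of normalized intensity, so that the spread of the ratios lay in the clones, whose levels were 12.34, 9.33, 10.42 and 11.39.

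CLDN3 and CLDN4 were the genes with the highest means. CLDN3 had log2 ratios of 0.29, 0.44, 1.40 and 0.76 in the same order of clones, with a mean of 0.72 ± 0.20 (SE, n = 4; limma, 95% interval 0.24 to 1.21, adjusted p = 0.147). CLDN3 was higher on 4 of 4 arrays, as were 12.1% of all probes, and its dimmer probe had a mean of 0.20 with 1 array below 0. CLDN4 had -0.33, 0.31, 1.48 and 1.07, with a mean of 0.63 ± 0.30 (SE, n = 4; limma, 95% interval -0.10 to 1.36, adjusted p = 0.339). For both genes, the clones EV9 and EV18, labelled in Cy3, had higher ratios than EV7 and EV12, labelled in Cy5. The means by dye were 1.08 in Cy3 and 0.37 in Cy5 for CLDN3, and 1.27 and -0.01 for CLDN4. Each clone was hybridised with 1 dye, so clone and dye cannot be told apart here.

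CLDN7, another sealing claudin, had log2 ratios of -0.23, -0.72, 0.50 and 0.29 and a mean of -0.04 ± 0.22 (SE, n = 4), and it also split by dye. Occludin (OCLN) had 0.15, 0.85, 0.13 and -0.13, a mean of 0.25 ± 0.18 (SE), and its second probe had a mean of 0.10. JAM-A (F11R) had 0.15, -0.26, 0.22 and 0.62, a mean of 0.18 ± 0.16 (SE), and its second probe had a mean of 0.21. None of these differed from 0 beyond the spread between clones, and the intervals reached from -0.57 to 0.49 for CLDN7, from -0.19 to 0.69 for OCLN and from -0.21 to 0.58 for F11R.

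The probes of TJP1, the ZO-1 scaffold, disagreed in ErbB2-KD. The brighter probe had log2 ratios of 0.37, 1.10, -0.59 and -0.49 (mean 0.10, adjusted p = 0.909), above 0 on the Cy5 arrays and below 0 on the Cy3 arrays. The dimmer probe, A_23_P205828, had 0.40, 1.23, 0.63 and 0.48, above 0 on 4 of 4 arrays, with a mean of 0.69 ± 0.17 (SE; limma, 95% interval 0.28 to 1.09, adjusted p = 0.120). The value of TJP1 in these clones therefore depends on the probe.

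**Figure D1:**
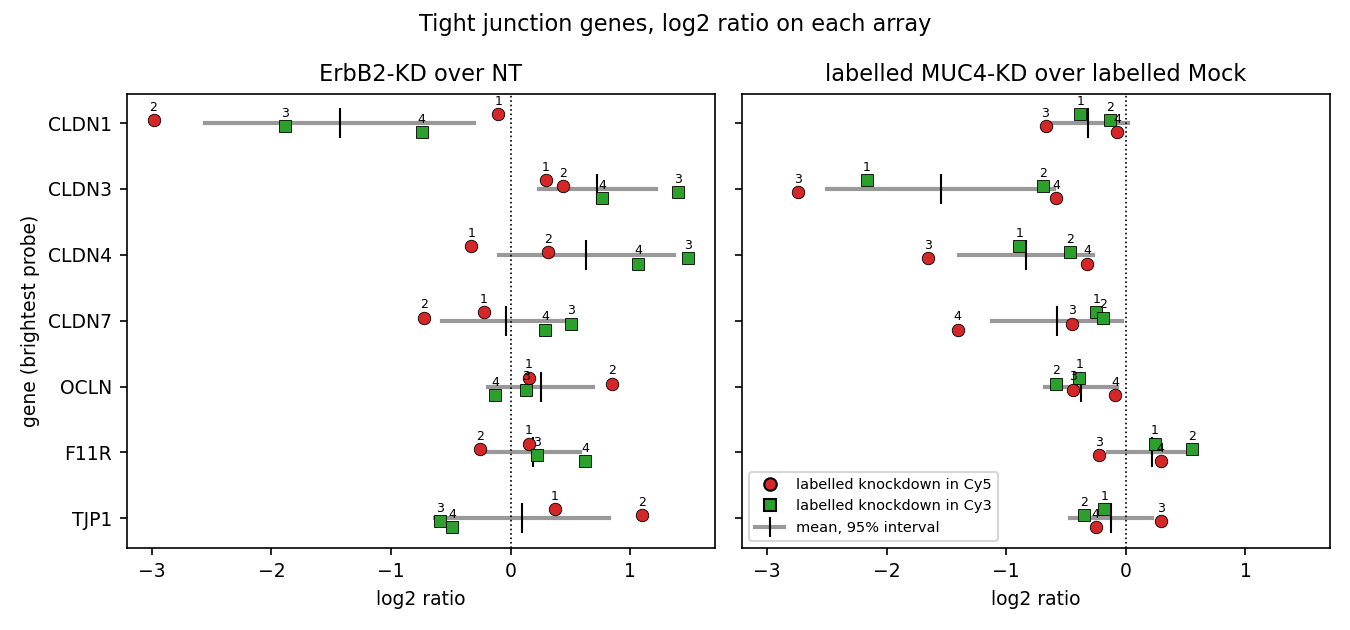
Log2 ratio of the brightest probe of each gene on each array (numbered 1 to 4) in ErbB2-KD over NT (left) and in labelled MUC4-KD RNA against labelled Mock RNA (right); circles mark arrays with the labelled knockdown in Cy5, squares in Cy3, and bars the limma mean with its 95% interval. CLDN1 spreads from -2.99 to -0.10 in ErbB2-KD, and CLDN3 lies above 0 on all 4 ErbB2-KD arrays and below 0 on all 4 MUC4-KD arrays as labelled.

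In labelled MUC4-KD RNA against labelled Mock RNA, 1 of the 7 genes, CLDN3, passed the test (adjusted over 25047 probes), where 20.5% of all probes did, so 1 of 7 is no larger a share than that of all probes. As labelled, 6 of the 7 means were below 0. CLDN1, CLDN3, CLDN4, CLDN7 and OCLN were lower on 4 of 4 arrays, which 22.0% of all probes were, and no gene was higher on all 4, which 27.4% were. The median log2 ratio of the 7 genes was -0.38, against 0.01 over all probes tested.

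CLDN3 had log2 ratios of -2.16, -0.69, -2.74 and -0.58 on arrays 1 to 4, with a mean of -1.55 ± 0.39 (SE, n = 4; limma, 95% interval -2.49 to -0.60, adjusted p = 0.0425), a fold of 0.343. With the log ratios that Feature Extraction had computed, the mean was -2.38 (limma, adjusted p = 0.00949). Arrays 1 and 3 were low and arrays 2 and 4 were nearer to 0, and both kinds held 1 array of each dye orientation. The dimmer CLDN3 probe had -1.29, -0.31, -1.50 and -0.10 (mean -0.80, adjusted p = 0.0759) and missed the threshold. The call did not hold without array 1 (adjusted p = 0.150), without array 2 (0.0795) or without array 3 (0.166), nor with arrays 1 and 3, and 2 and 4, averaged as pairs (0.0723).

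CLDN4 followed CLDN3 array by array, with log2 ratios of -0.89, -0.47, -1.65 and -0.32, a mean of -0.83 ± 0.23 (SE, n = 4; limma, 95% interval -1.40 to -0.27, adjusted p = 0.0514). Its adjusted p was 0.166, 0.109, 0.157 and 0.0252 without arrays 1, 2, 3 and 4 in turn. OCLN had -0.39, -0.59, -0.44 and -0.09, a mean of -0.38 ± 0.12 (SE; limma, 95% interval -0.68 to -0.08, adjusted p = 0.0744), and its adjusted p was 0.244, 0.222, 0.233 and 0.0230 without arrays 1 to 4 in turn. Without array 4, 9622 of 26640 probes passed. The second OCLN probe gave -0.27, -0.55, -0.38 and -0.04 (mean -0.31, adjusted p = 0.117). For both genes array 4 was the nearest to 0.

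CLDN7 had log2 ratios of -0.25, -0.19, -0.45 and -1.41, a mean of -0.57 ± 0.22 (SE, n = 4; limma, 95% interval -1.12 to -0.03, adjusted p = 0.110). Here array 4 was the lowest, unlike for the other claudins. CLDN1 had -0.38, -0.13, -0.67 and -0.07 (mean -0.31, adjusted p = 0.142), while its dimmer probe had -0.80, -0.44, -0.56 and -0.21, a mean of -0.50 ± 0.13 (SE; limma, adjusted p = 0.0458), so that CLDN1 passed by 1 of its probes. F11R had 0.24, 0.56, -0.22 and 0.29 (mean 0.22, 95% interval -0.15 to 0.58), with 0.08 for its second probe, and TJP1 had -0.18, -0.35, 0.30 and -0.25 (mean -0.12, 95% interval -0.47 to 0.22), with -0.105 for its second probe.

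The levels in both channels showed where the ratios varied. In the channel labelled Mock, CLDN3 had log2 levels of 10.57, 9.37, 10.72 and 8.61 on arrays 1 to 4, a range of 2.11, while in the channel labelled MUC4-KD it had 8.41, 8.68, 7.98 and 8.03, a range of 0.697. CLDN4 had a range of 1.70 in the channel labelled Mock and 0.671 in the other. CLDN7 had 13.54, 13.55, 13.71 and 14.92 in the channel labelled Mock and between 13.26 and 13.51 in the other, so its low ratio on array 4 came with a high level labelled Mock. All but F11R, 6 of the 7 genes, varied more in the channel labelled Mock, beside 73.0% of all probes, although the labels and methods make that RNA a single pool. The second F11R probe also varied more there (SD of 0.344 against 0.209). In ErbB2-KD all 7 genes varied more in the clones than in the NT pool, beside 81.2% of all probes, but for CLDN7 the SD was 0.286 in the clones and 0.271 in NT.

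**Figure D2:**
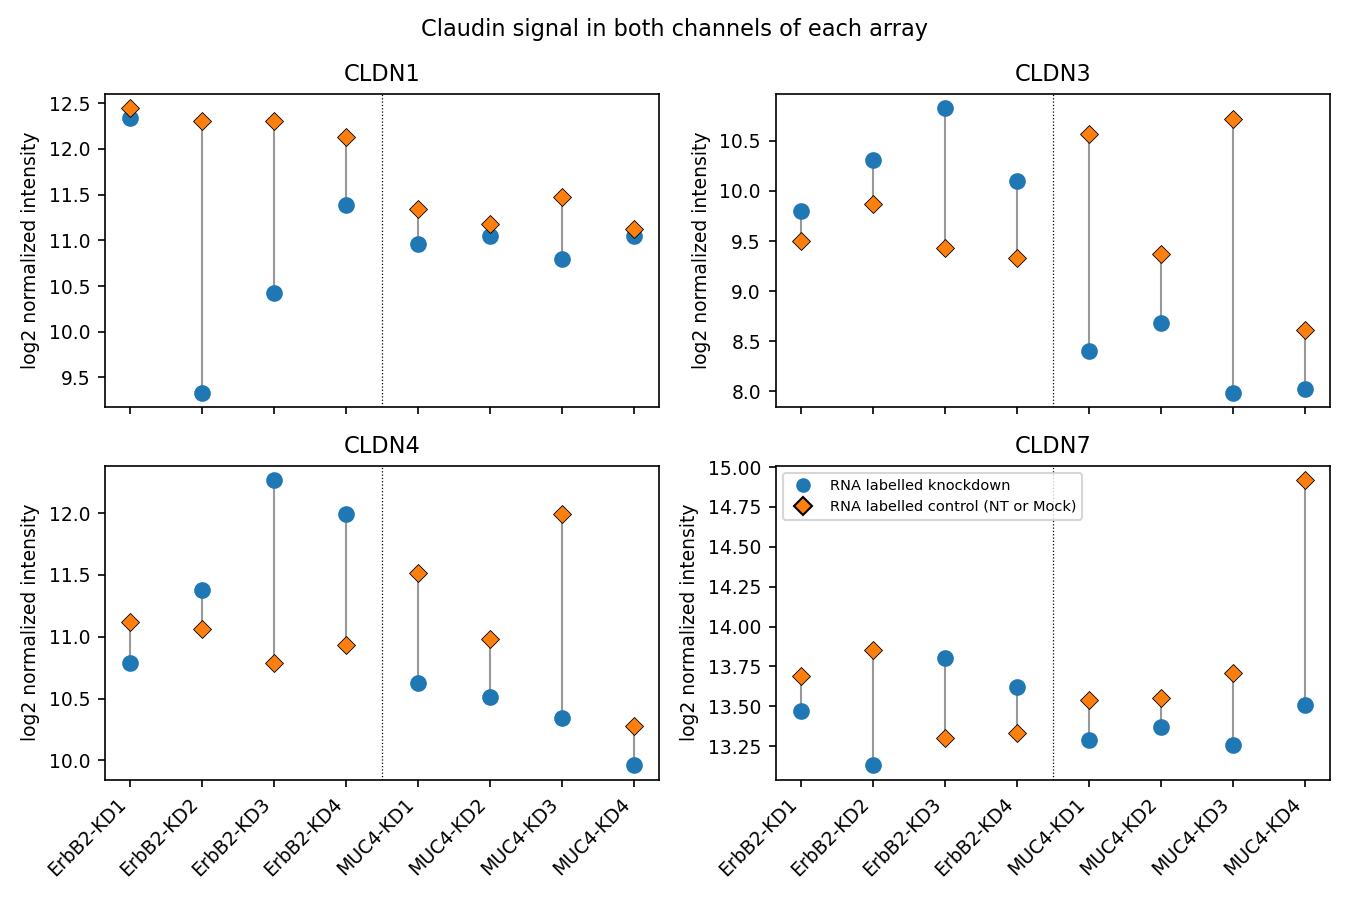
Level of CLDN1, CLDN3, CLDN4 and CLDN7 (log2 normalized intensity of the brightest probe) in the RNA labelled knockdown (circles) and the RNA labelled control (diamonds) of each of the 8 arrays, joined by a line; the axes do not start at 0. In ErbB2-KD the circles of CLDN1 spread over 3.02 and the diamonds over 0.315, whereas on the MUC4-KD arrays the diamonds (labelled Mock) of CLDN3 spread over 2.11 and the circles over 0.697.

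The difference between the experiments was tested with limma over all 8 arrays, as the labelled MUC4-KD ratio minus the ErbB2-KD ratio. Of the 7 genes, CLDN3 passed, where 9.91% of 25835 probes did. Its difference was -2.27 ± 0.49 (SE; 95% interval -3.37 to -1.17, adjusted p = 0.0249), with all 4 ErbB2-KD ratios above 0 and all 4 labelled MUC4-KD ratios below 0. The second CLDN3 probe had a difference of -1.001 (adjusted p = 0.0818), with 1 ErbB2-KD ratio below 0, so that the call rests on the brighter probe. With Feature Extraction's log ratios the difference by the brighter probe was -3.21 (adjusted p = 0.00293). Within the slides, each of which held arrays of both experiments, the difference by the brighter probe was -1.54, -1.02 and -3.22. CLDN4 had a difference of -1.47 ± 0.42 (SE; 95% interval -2.41 to -0.52, adjusted p = 0.0569). OCLN had -0.63 (adjusted p = 0.103) and CLDN1 had 1.12 (95% interval -0.09 to 2.32, adjusted p = 0.207). The dimmer TJP1 probe, A_23_P205828, differed by -0.79 (adjusted p = 0.0468), while the brighter one had -0.22 (adjusted p = 0.723).

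These differences rest on the labels. With the sign of the MUC4-KD ratios turned, the difference of CLDN3 was 0.82 (95% interval -0.28 to 1.92, adjusted p = 0.266) and that of CLDN4 was 0.20 (95% interval -0.74 to 1.14, adjusted p = 0.764), and none of the 7 genes passed by its brightest probe. The dimmer TJP1 probe then had -0.58 (adjusted p = 0.0857). The dimmer CLDN1 probe passed instead, with 1.26 (adjusted p = 0.0278), and the brighter one had 1.74 (adjusted p = 0.0531).

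**Figure D3:**
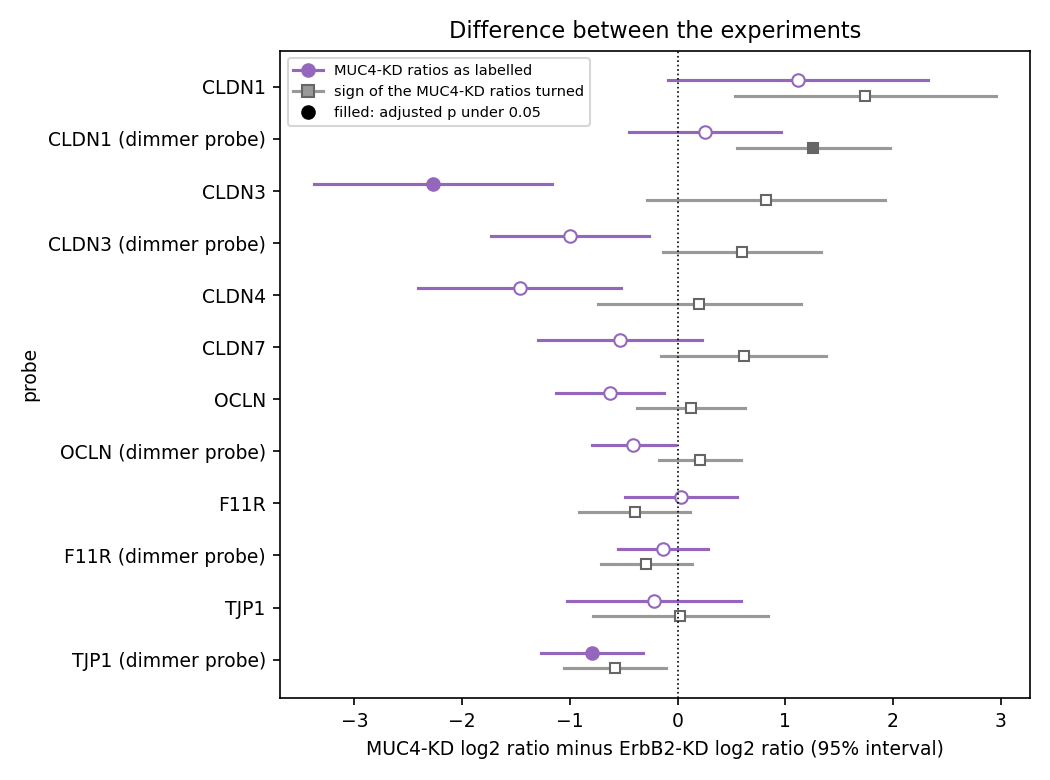
Difference of the log2 ratios, labelled MUC4-KD minus ErbB2-KD, for the 12 probes tested, with its 95% interval from limma over 8 arrays; circles use the MUC4-KD ratios as labelled, squares the same ratios with their sign turned, and filled symbols passed an adjusted p of 0.05. CLDN3 moves from -2.27 as labelled to 0.82 with the sign turned.

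Of the 7 genes, CLDN3 had the widest range over the 8 arrays as labelled, 4.14 log2 units, and was compared with the other 11655 genes tested in both experiments. The genes most like it were TYSND1 (Pearson r = 0.982), PNPT1 (0.975), HERC5 (0.975), SUCO (0.975) and BATF2 (0.972). Within the ErbB2-KD arrays these genes had r = 0.980, 0.434, 0.683, 0.916 and 0.563 in the same order, and within the MUC4-KD arrays 0.932 to 0.982. Of the 7 genes, CLDN4 was the closest over 8 arrays, with r = 0.930 at rank 79, followed by OCLN with 0.614, CLDN7 with 0.379, F11R with 0.283, TJP1 with -0.119 and CLDN1 with -0.441. Within the ErbB2-KD arrays CLDN4 had 0.925, CLDN7 0.807, F11R 0.337, CLDN1 -0.219, OCLN -0.36 and TJP1 -0.76. Within the MUC4-KD arrays CLDN1 had 0.973, CLDN4 0.945, F11R 0.833, OCLN 0.272, CLDN7 -0.448 and TJP1 -0.847. The order over 8 arrays rests on the labels. With the sign of the MUC4-KD ratios turned, the range of CLDN3 was 2.45 and that of CLDN1, then the widest, was 3.66. CLDN4 then had r = 0.784 with CLDN3 (rank 307), CLDN1 had 0.421, TYSND1 had 0.906 (rank 34) and SUCO had -0.140. These values describe 8 arrays that fall into 2 experiments with shared pools and dyes, and within an experiment they rest on 4 points.

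Of the wider tight junction genes (49 listed, 44 with a probe), limma called none of 31 tested in ErbB2-KD. Of these, 10 had an unadjusted p under 0.05, and the methods' t-test after adjustment called 0, as it did over all probes. All probes were not counted at an unadjusted p under 0.05 here either. At an unadjusted p under 0.01 in limma, there were 4 of the 31 genes and 1673 of 23869 probes in ErbB2-KD. In RNA labelled MUC4-KD 10 of 32 passed, 5 higher and 5 lower as labelled, or 31.2% beside the 20.5% of all probes. The median log2 ratio was 0.08 in ErbB2-KD and -0.20 in MUC4-KD.

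Among the other claudins, 5 of 14 could be tested and 2 passed in RNA labelled MUC4-KD. CLDN23 had log2 ratios of -1.25, -0.71, -1.47 and -0.39 (mean -0.95, adjusted p = 0.0277) with arrays 1 and 3 lowest, as for CLDN3. In ErbB2-KD CLDN23 had 0.78, 0.17, 0.50 and 0.46, and its difference between the experiments was -1.43 (limma, adjusted p = 0.0127). CLDN12 went the other way, with 0.93, 0.84, 0.81 and 0.42 (mean 0.75, adjusted p = 0.0176). Among the other membrane proteins 1 of 7 passed, ILDR1, an angulin of tricellular junctions, with a mean of 0.81 (adjusted p = 0.0303).

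Among the scaffolds and polarity proteins 7 of 20 passed in RNA labelled MUC4-KD, 3 higher and 4 lower. TJAP1, a tight junction-associated protein, had a mean of -0.84 (adjusted p = 0.0112), against 0.46 in ErbB2-KD, a difference of -1.30 (limma, adjusted p = 0.00379). The differences of CLDN23 and TJAP1 rest on the labels of the MUC4-KD arrays too. AMOTL2, an angiomotin-family scaffold, had -1.02 (adjusted p = 0.0204) and, in ErbB2-KD, -1.03 without passing (adjusted p = 0.103). The polarity proteins PARD6A and PARD6B moved in opposite directions, with -0.92 (adjusted p = 0.0130) and 0.76 (adjusted p = 0.0194). The values of PARD6B in ErbB2-KD were 0.79, 0.84, 1.07 and 0.46, with an adjusted p of 0.0582. That AMOTL2 and PARD6B each had the same sign in both experiments rests on the labels of the MUC4-KD arrays too.

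**Figure D4:**
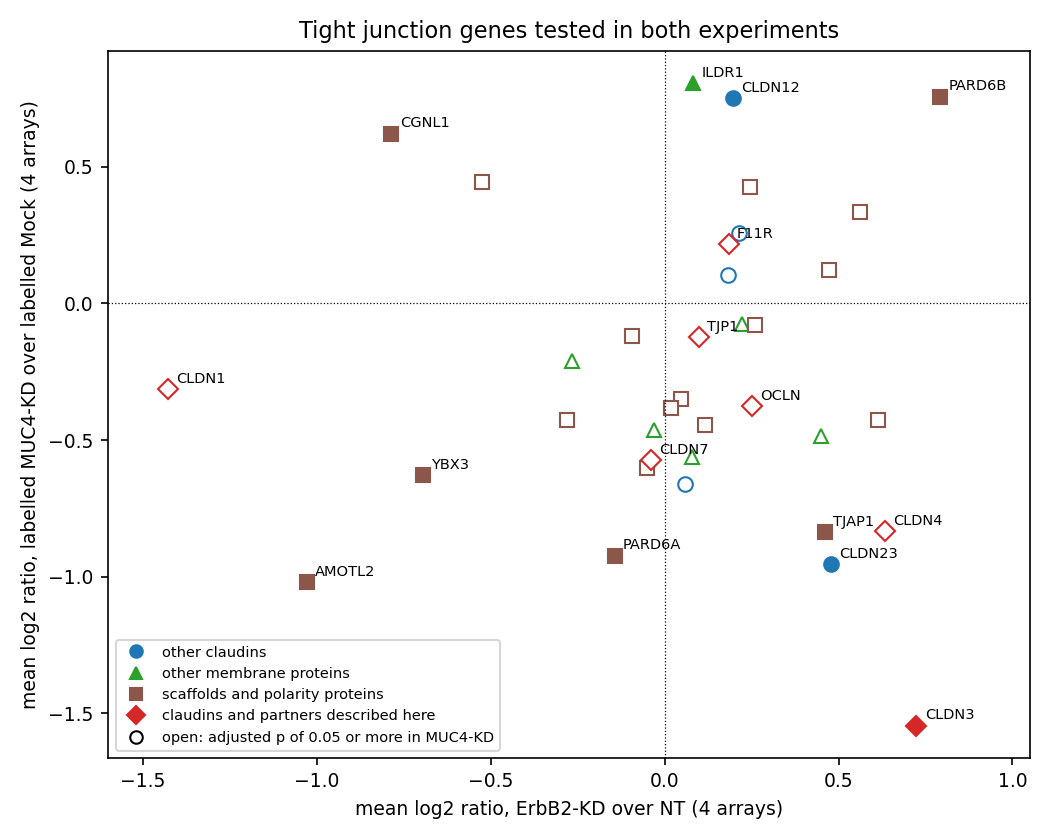
Mean log2 ratio in ErbB2-KD over NT (horizontal) against that in labelled MUC4-KD RNA against labelled Mock RNA (vertical), 4 arrays each; each symbol is a tight junction gene tested in both experiments, and filled symbols passed an adjusted p of 0.05 in MUC4-KD, and none did in ErbB2-KD. CLDN3 (0.72 and -1.55), CLDN4, CLDN23 and TJAP1 lie at the lower right.

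Genes of the other junctions and of their regulators were counted the same way in RNA labelled MUC4-KD, where 20.5% of all probes passed. Of 9 adherens junction genes 3 passed, all higher: CTNNA1 (alpha-catenin, 0.72), CTNND1 (p120-catenin, 0.55) and NECTIN4 (0.64). Of 6 desmosome genes 0 passed, and 1 had an unadjusted p under 0.05 in limma, a threshold at which all probes were not counted. Of 4 gap junction genes 1 passed, GJA1 (a connexin), which on no array was well above background in labelled Mock RNA and was at least 5.49-fold higher in labelled MUC4-KD RNA (limma, adjusted p = 0.0211). Of 15 repressors and activators of junction genes 6 passed, 2 higher (SNAI1 and TWIST1) and 4 lower. ZEB1 was well above background nowhere in this experiment. OVOL1, a zinc finger repressor that keeps epithelial identity, had log2 ratios of -4.08, -3.01, -3.80 and -2.69 (mean -3.40, adjusted p = 0.00271), against 0.38, 2.23, 0.59 and 0.19 in ErbB2-KD. Of the 14 genes of this list tested in ErbB2-KD, 0 passed. The opposite signs of OVOL1 rest on the labels of the MUC4-KD arrays, and with those ratios turned its values would be above 0 in both experiments. GRHL3, a grainyhead factor, on no array was well above background in labelled MUC4-KD RNA and was at least 2.40-fold higher in labelled Mock RNA (adjusted p = 0.0363). ESRP1, an epithelial splicing regulator, had a mean of -1.01 (adjusted p = 0.0232), TFCP2L1 had -0.76 (adjusted p = 0.0366), and TWIST1, an inducer of mesenchymal genes, had 1.00 (adjusted p = 0.0104).

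Markers of other cells were read beside these values. In the MUC4-KD experiment KRT19 was the only 1 of 8 ductal markers that passed (1.02, adjusted p = 0.00585), and ACTA2, the only 1 of 6 fibroblast and mesenchymal markers that could be tested, had 0.57 (adjusted p = 0.0469). The summed level of the fibroblast list was 997 to 1060 in labelled MUC4-KD RNA and 838 to 1000.0 in labelled Mock RNA, with COL1A2, DCN and PDGFRB well above background nowhere, and against a summed level of the 9 tight junction genes of 41600 to 50700 and 44700 to 66100. In ErbB2-KD limma called 0 genes of the marker lists. An unadjusted p under 0.05 was found for 4 of 8 ductal, 1 of 2 endothelial and 1 of 2 leukocyte markers tested. All probes were not counted at that threshold.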

How the data were processed

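The authors scanned each array with Feature Extraction 10.5.1.1 and deposited the median spot and background intensity of both channels, flags, and log10 ratios of Cy5 over Cy3; the deposited log10 ratios served as an alternative here. The study used GeneSpring 10.

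Background was corrected with normexp (offset 50; limma 3.58.1, R 4.3.3). Outlier spots were dropped and loess was applied within arrays, after which each log2 ratio was signed as labelled knockdown over control. Replicate spots were averaged (43376 spots, 41000 probes, 25398 named through RefSeq accessions). Levels were scaled by Aquantile. Probes well above background on 4 of 4 arrays in 1 RNA entered lmFit and eBayes, two-sided, against a mean of 0; p-values measure the spread between arrays, whose number limits the precision. A symbol took its brightest probe. All 9 genes were named and, of other lists, at most 5 genes past the threshold, with SNAI1 named in addition. Of the scaffold list, 1 gene was counted but is not reported or plotted here. The members and lists were chosen with earlier results of these data known. A least fold set the brighter mean against, on each array, the higher of the lowest signal well above background and the dim probe's own.

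Tested on simulated data, changes of 1 and 2 log2 units were recovered in 45.0% and 85.0% of cases for ErbB2-KD. The shares were 49.0% and 83.0% for MUC4-KD, and 28.0% and 85.0% for the difference. Of the calls, 2.26%, 3.65% and 8.87% were false, in the same order. The simulated arrays had independent normal noise, and 200 probes were changed. In the data 5131 probes passed in the MUC4-KD experiment and arrays shared a pool, so these rates need not hold for the calls reported here.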

Additional observations from a re-analysis of the deposited data

Results flagged for a closer look

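The log2 ratio of CLDN3 differed between the experiments by -2.27 (labelled MUC4-KD minus ErbB2-KD, limma over 8 arrays, adjusted p = 0.0249), lower on 4 of 4 labelled MUC4-KD arrays and higher on 4 of 4 ErbB2-KD arrays. The second CLDN3 probe had -1.001 (adjusted p = 0.0818) and did not pass. The dimmer TJP1 probe, A_23_P205828, differed by -0.79 (adjusted p = 0.0468), with ErbB2-KD ratios of 0.40, 1.23, 0.63 and 0.48 and labelled MUC4-KD ratios between -0.39 and 0.05. With the sign of the MUC4-KD ratios turned, these differences were 0.82 (adjusted p = 0.266) and -0.58 (adjusted p = 0.0857). Over the 24 sets of 4 arrays checked for the 12 probes, 0 had an array that stood apart by Dixon's criterion at the 95% level.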

How the results depend on the processing

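In ErbB2-KD 0 of the 7 genes passed under every alternative run, among them some that called almost no probe at all. The calls over all probes were 0 with the ordinary t-test or without array 1, 3 without array 3, 30 without array 4 and 31 with median centring. In RNA labelled MUC4-KD the count of 1 became 3 with Feature Extraction's log ratios, 2 with the filter in both channels and 2 with the mean of a gene's probes. It became 0 with median centring, which called 1 of all 25047 probes and gave CLDN3 -1.72. It was also 0 with no filter on dim probes, the ordinary t-test (106 of all probes) or arrays 1 with 3 and 2 with 4 averaged. Leaving out 1 array gave 0 to 3. For the difference the count of 1 became 2 with Feature Extraction's log ratios, a dye term or an unadjusted p under 0.01. It became 0 with median centring, no filter, the ordinary t-test or the sign of the MUC4-KD ratios turned. Leaving out 1 array gave 0 to 2. Of wider genes, the 0 in ErbB2-KD became 3 (AMOTL2, PARD6B, YBX3) in 1 fit over all 8 arrays, with or without the slide as a block. It became 2 with the mean of probes and 4 at an unadjusted p under 0.01, and stayed at 0 with each array left out. The 10 in MUC4-KD became 0 with median centring or the ordinary t-test and 6 with no filter. With 1 array left out there were 0 to 17 (1, 0, 0 and 17 without arrays 1 to 4). The CLDN3 difference lost its call without ErbB2-KD arrays 3 (adjusted p = 0.0660) or 4 (0.0566) and without MUC4-KD arrays 1 (0.0742) or 3 (0.0642).

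Directions changed for CLDN7 in ErbB2-KD with Feature Extraction's log ratios (0.0135), and with an array left out (-0.22 to 0.19); for TJP1 in MUC4-KD with median centring (0.0589), and in ErbB2-KD with an array left out (-0.24 to 0.33); for the F11R difference with the mean of probes (-0.0514) and with an array left out (-0.12 to 0.18); for the TJP1 difference with an array left out (-0.45 to 0.11); and, with the sign of the MUC4-KD ratios turned, for the differences of CLDN3 (0.82), CLDN4 (0.20), CLDN7 (0.61), OCLN (0.13), TJP1 (0.0249) and F11R (-0.40). The cause was not tested. The array number as a replicate block gave 0 of 7 for the difference (CLDN3 adjusted p = 0.0704); same-numbered arrays had deviations correlated at -0.24 to -0.05, so they share only a number. The slide as a block within 1 experiment could not be estimated from 4 arrays on 3 slides; its use in 1 fit over all 8 arrays for the single experiments, and the sign turned, were chosen after seeing the data. CLDN2 and CLDN18 were too near background to be tested.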
